A study of Homo sapiens with 6 samples.

Results

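The genes described are 10 genes of the BCL2 family, which sets whether a cell lives or dies through its mitochondria: the pro-survival genes MCL1, BCL2L1 and BCL2, the pore-forming effectors BAX and BAK1, and the BH3-only genes BID, BAD, BIK, BCL2L11 and PMAIP1. They were picked out by gene symbol, and 9 of the 10 had a row among the 22152 rows of the gene table. BCL2 was not analysed here. All 9 passed the filter on low values, a normalised read count of at least 10 in at least 3 samples, which left 14795 rows to test.

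RNA was taken from HaCaT cells, a spontaneously immortalised human keratinocyte (KC) line, 48 h after transfection with 1 nM of a synthetic RNA. In 3 samples the synthetic RNA was a mimic of miR-21-3p, the strand of the miR-21 duplex long regarded as the passenger, and in 3 samples it was a negative control (NC) mimic. No untransfected cells enter the comparison, so both groups carry a transfected small RNA. Polyadenylated RNA was sequenced after a stranded library preparation. The comparison asks how KC transcripts differ between cells given the miR-21-3p mimic and cells given the NC mimic. Mature miRNAs carry no poly(A) tail, so the mimic itself was not measured in these libraries.

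BCL2 family proteins meet at the outer mitochondrial membrane. BAX and BAK1 open pores in it, MCL1 and BCL-xL (the main product of BCL2L1) hold both in check, and BH3-only proteins carry stress signals by occupying the groove of the pro-survival proteins or by activating BAX and BAK1 directly. Once the pores open, cytochrome c leaves the mitochondria, APAF1 assembles the apoptosome and caspases are activated; in KCs, BCL-xL and MCL1 are known as survival factors under ultraviolet light and during differentiation.

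The deposited values were gene read counts scaled to a common depth, called normalised read counts here. The whole reads behind them came to about 24402815, 24528392 and 26171067 in the 3 NC mimic samples and to about 24808271, 24974979 and 27984002 in the 3 miR-21-3p mimic samples. Of 10 keratinocyte markers, 9 had values, and their summed normalised read count was 342100, 325900 and 340800 in the NC mimic samples and 343700, 354600 and 329000 in the mimic samples. The basal keratin KRT5 had the highest normalised read count of them, with a mean of 131800 over all 6 samples. KRT6A, a keratin of activated KCs, was the 1 marker of the 9 to pass the limma test (11.1% against 10.8% of all genes tested). The log2 fold change of KRT6A was 0.34 (limma adjusted p = 0.00207). DESeq2 also called SFN (adjusted p = 0.0295, against 0.0547 in limma), and without NC mimic replicate 2 limma called 2 of the markers higher, KRT6A and SFN, and 2 lower, LAMB3 and TP63, in a fit where 20.1% of all genes passed. The adjusted p of SFN reached 0.223 and that of LAMB3 0.491 without another sample. Markers of other lineages had few rows: CD14 was the only leukocyte marker of 5 with values (58.7 to 92.2), VWF the only endothelial marker of 4 (712 to 801) and PMEL the only melanocyte marker of 4 (120 to 155). Of 6 fibroblast markers, COL1A1 alone had values, 560, 390 and 478 in the NC mimic samples against 372, 378 and 364 in the mimic samples. These COL1A1 values did not overlap between groups and missed the threshold in limma (adjusted p = 0.0641) but not in DESeq2 (adjusted p = 0.0278). The limma value was 0.00179 without NC mimic replicate 2 (up to 0.211 without another sample), and the part of these values in the results was not tested.

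The 6 libraries did not fall into 2 tight groups. On the first principal component, which held 54.8% of the variance between samples, NC mimic replicates 1, 2 and 3 lay at -16.02, -1.1 and -11, and the miR-21-3p mimic replicates at 8.88, 4.93 and 14.3. On that component NC mimic replicate 2 lay nearer to miR-21-3p mimic replicate 2 than to the other NC mimic samples. Results are therefore given with all 6 samples, and the list counts also without that library where they move. For each member, values from fits without 1 sample stand beside the gene or in the section on how the results depend on the processing. With all 6 samples, 1593 of 14795 genes passed at a limma adjusted p under 0.05, which is 10.8% of those tested: 904 genes (6.11%) were higher and 689 (4.66%) lower with the miR-21-3p mimic. The number was 2966 (20.1%) without NC mimic replicate 2, 544 (3.68%) without NC mimic replicate 1 and 179 (1.21%) without NC mimic replicate 3. It was 276 (1.87%), 1542 (10.4%) and 365 (2.47%) without miR-21-3p mimic replicates 1, 2 and 3. The p-values measure the spread between these 6 transfected cultures, described as biological replicates of 1 cell line.

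Against that background, 2 of the 9 members passed the test. BID was higher with the miR-21-3p mimic and BCL2L11 was lower, and the other 7 members did not pass. A share of 10.8% of all genes already puts about 1 gene in any 9 past the threshold, so these are values for 2 genes and not for the family. In bulk RNA, fewer cells expressing a gene and less RNA per cell cannot be told apart.

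**Figure D1:**
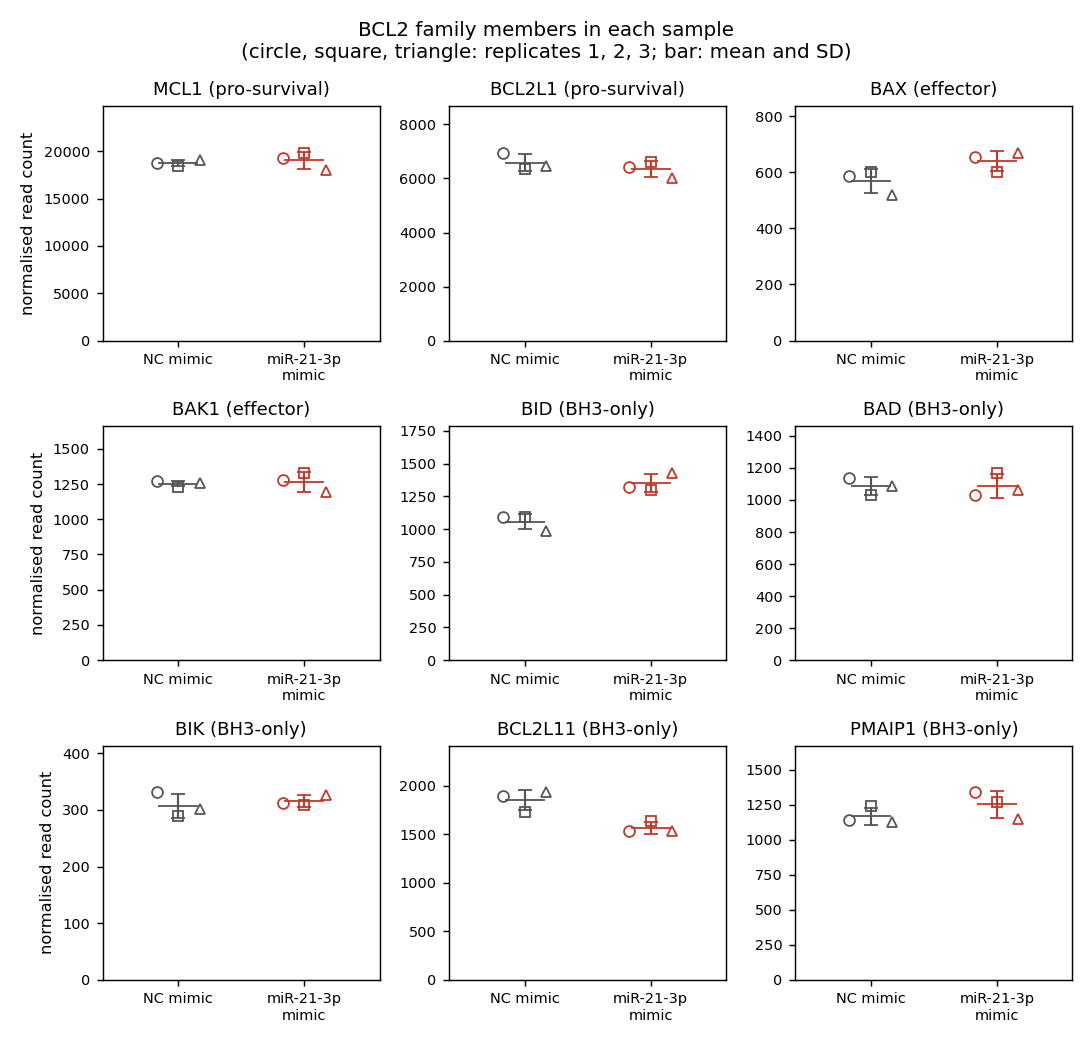
Normalised read counts of the 9 members in the 3 NC mimic samples (grey) and the 3 miR-21-3p mimic samples (red), with symbols for replicates 1, 2 and 3 and bars for the mean and SD; each vertical axis starts at 0. BID lies at 989 to 1090 in NC mimic and 1300 to 1430 in miR-21-3p mimic samples, BCL2L11 at 1730 to 1930 and 1530 to 1630, and both pro-survival genes overlap between groups.

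Neither pro-survival gene differed between groups by more than the spread between samples. MCL1, a short-lived protein that restrains BAK1 and binds BCL2L11 and PMAIP1 products, had normalised read counts of 18800, 18400 and 19100 in the NC mimic samples and of 19300, 19800 and 18000 in the miR-21-3p mimic samples. The mimic samples held both the highest and the lowest MCL1 value, so the groups overlapped fully. Its log2 fold change was 0.02 with a 95% confidence interval from -0.09 to 0.12, and limma's adjusted p was 0.826. BCL2L1 had 6940, 6340 and 6470 in the NC mimic samples and 6430, 6600 and 6020 in the mimic samples. Its groups overlapped too, with the highest value in NC mimic replicate 1 and the lowest in miR-21-3p mimic replicate 3. For BCL2L1 the log2 fold change was -0.05 (interval -0.16 to 0.06, limma adjusted p = 0.534). As folds, these intervals ran from 0.94 to 1.09 for MCL1 and from 0.89 to 1.04 for BCL2L1. Over the 6 fits that each left out 1 sample, the log2 fold change of BCL2L1 ran from -0.08 to -0.013 (limma adjusted p from 0.333 to 0.91). The antisense gene ABALON covers 43.0% of the exonic bases of BCL2L1 in GENCODE release 29. The strand setting of the counting is not given in the sources used here, so whether reads of the pair were kept apart is not known.

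None of the pro-survival members passed the limma test: 0 of 2 with values were called, against 10.8% of all genes tested. An unadjusted p under 0.05 was found for 0 of them (against 28.5% of all genes tested), and edgeR and DESeq2 each called 0. Leaving out any 1 of the 6 samples gave 0 calls as well, in fits where 1.21% to 20.1% of all genes passed.

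Of the 2 effectors, neither passed the test. BAX, which moves from the cytosol into the outer membrane when activated, had 587, 600 and 520 normalised reads in the NC mimic samples and 656, 601 and 669 in the mimic samples. The groups of BAX touched without overlapping, since miR-21-3p mimic replicate 2 exceeded NC mimic replicate 2 by the last of the 3 digits the file keeps. Its log2 fold change was 0.18 with an interval from 0.01 to 0.34, an unadjusted p of 0.0365 and a limma adjusted p of 0.145, short of the threshold. Without NC mimic replicate 2 it was 0.21 (limma adjusted p = 0.0737), and over the 6 fits that each left out 1 sample the adjusted p ran from 0.0737 to 0.446. BAK1, which sits in the membrane from the start, had 1270, 1230 and 1260 in the NC mimic samples against 1280, 1330 and 1190 in the mimic samples. The NC values of BAK1 lay inside the range of the mimic values, and its log2 fold change was 0.01 (interval -0.11 to 0.13, limma adjusted p = 0.895). BAK1 has a near-identical pseudogene copy, BAK1P1, with 412 to 477 normalised reads of its own, and how reads shared by such copies were counted is not given in the sources used here. For the effectors limma thus called 0 of 2, against 10.8% of all genes tested. There was 1 effector at an unadjusted p under 0.05 (against 28.5% of all genes tested), and edgeR and DESeq2 each called 0.

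The BH3-only genes held both members that passed, 2 of 5 against 10.8% of all genes tested, and these moved in opposite directions. Whether this class differs from the other members was not tested. BID encodes the protein that caspase-8 cuts to link death receptors to the mitochondria. Its identifier is ENSG00000015475.14, and in GENCODE release 29 (GRCh38) it lies on the minus strand of chr22:17734138-17774770, with no exonic base shared with another gene. BID had 1090, 1090 and 989 normalised reads in NC mimic replicates 1 to 3 and 1320, 1300 and 1430 in miR-21-3p mimic replicates 1 to 3. Every mimic sample stood above every NC sample, and the nearest pair, 1090 and 1300, was farther apart than the values within either group. The group means were 1056 ± 58.3 (SD, n = 3) and 1350 ± 70 (SD, n = 3). BID's log2 fold change of 0.35 (SE 0.06, interval 0.22 to 0.48) corresponds to a fold of 1.28, and limma's adjusted p was 0.00725. Leaving out NC mimic replicate 3, the lowest BID sample, gave an adjusted p of 0.0505 with a log2 fold change of 0.31, just past the threshold. In that fit 1.21% of all genes tested passed. The other 5 fits without 1 sample kept the call, with an adjusted p of 0.0012 without NC mimic replicate 2, and the log2 fold change stayed between 0.31 and 0.38 in all 6.

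BCL2L11 encodes BIM, which binds all the pro-survival proteins and activates BAX and BAK1. Its identifier is ENSG00000153094.17, on the plus strand of chr2:111119378-111168447 (GRCh38). BCL2L11 had 1890, 1730 and 1930 normalised reads in the NC mimic samples and 1530, 1630 and 1530 in the mimic samples. Every mimic sample stood below every NC sample, with the narrowest gap between NC mimic replicate 2 at 1730 and miR-21-3p mimic replicate 2 at 1630. The means were 1850 ± 106 (SD, n = 3) and 1563 ± 57.7 (SD, n = 3). This gave a log2 fold change of -0.24 (SE 0.06, interval -0.36 to -0.12), a fold of 0.85, with a limma adjusted p of 0.0195. This call held in fewer of the 6 fits without 1 sample than that of BID, 2 against 5. The adjusted p rose to 0.0625 without NC mimic replicate 1, to 0.105 without NC mimic replicate 3, to 0.0952 without miR-21-3p mimic replicate 1 and to 0.0772 without miR-21-3p mimic replicate 3. In these fits 1.21% to 3.68% of all genes tested passed. The adjusted p was 0.00236 without NC mimic replicate 2 (20.1% of all genes passed) and 0.0222 without miR-21-3p mimic replicate 2 (10.4%). The log2 fold change lay between -0.29 and -0.21 in all 6 fits. The antisense gene MIR4435-2HG shares 10.9% of the exonic bases of BCL2L11. With the strand setting of the counting not given, whether reads of the 2 strands were kept apart for that stretch is not known.

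The sequences around the transcription starts of BID and BCL2L11 are shown because these were the members that passed the test. They are RefSeq windows (GRCh38.p14) of 300 bases around a start, most of which lie before it, written 5′ to 3′ on the gene's strand in lower case, with motif matches in capitals. The capitals in the BID window, chr22:17773993-17774292 on the minus strand, mark an E-box (CACGTG), the element that MYC and related factors bind. The capitals in the BCL2L11 window, chr2:111120664-111120963 on the plus strand, mark a forkhead core (GTAAACA), the element of FOXO factors.
BID: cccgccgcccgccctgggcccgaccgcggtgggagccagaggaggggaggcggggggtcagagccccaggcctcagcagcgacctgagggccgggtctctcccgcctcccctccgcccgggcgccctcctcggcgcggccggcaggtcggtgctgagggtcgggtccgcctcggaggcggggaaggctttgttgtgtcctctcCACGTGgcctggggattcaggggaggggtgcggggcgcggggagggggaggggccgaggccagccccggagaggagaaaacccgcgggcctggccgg
BCL2L11: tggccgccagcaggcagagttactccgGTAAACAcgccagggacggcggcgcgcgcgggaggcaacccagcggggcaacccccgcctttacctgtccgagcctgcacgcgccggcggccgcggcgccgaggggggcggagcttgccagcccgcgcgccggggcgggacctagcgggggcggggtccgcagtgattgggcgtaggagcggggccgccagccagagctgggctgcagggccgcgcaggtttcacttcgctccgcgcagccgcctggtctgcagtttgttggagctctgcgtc
Of the 5 windows that RefSeq gives for BID, 2 overlapping ones hold this E-box and the one shown is 1 of these. The window shown was picked as the one with the most motif matches and, of equals, the most upstream. The BID windows outside these 2 held no match. The E-box began at position -47 from the transcription start in the window shown and at -106 from the start in the other window that holds it. The forkhead core of BCL2L11 began at position -223. Both strands were searched for these 2 motifs, for the E2F forms TTTGGCGC and TTTCCCGC and for the STAT form TTCNNNGAA, and no match overlapped another. Of all 35116 RefSeq promoter windows of 300 bases, 7.26% held CACGTG, 3.42% held GTAAACA, 0.65% and 1.63% held the E2F forms and 7.66% held the STAT form. Windows were matched for 7 of the 9 members, 13 windows in all, and BAX was the third member with a match, with 4 E-boxes in its window. The BID window was 78.0% G and C and the BCL2L11 window 74.7%. A match is a stretch of letters and not a binding site.

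The other 3 BH3-only members did not pass. PMAIP1, which encodes NOXA, a partner of MCL1, had 1140, 1240 and 1130 normalised reads in the NC mimic samples and 1340, 1270 and 1150 in the mimic samples. NC mimic replicate 2 lay above miR-21-3p mimic replicate 3, so the groups of PMAIP1 overlapped, and the log2 fold change of 0.10 (interval -0.04 to 0.24) had a limma adjusted p of 0.352. Without 1 sample the log2 fold change of PMAIP1 ran from 0.048 to 0.158 (limma adjusted p from 0.162 to 0.743). BAD, which is kept inactive by phosphorylation downstream of growth factors, had 1140, 1030 and 1090 against 1030, 1170 and 1060. The mean of BAD was 1087 in both groups, and the interval of its log2 fold change ran from -0.14 to 0.14. BIK, a BH3-only protein of the endoplasmic reticulum, had 331, 289 and 301 against 312, 308 and 327. The mimic values of BIK lay inside the NC range, with a log2 fold change of 0.04 (interval -0.14 to 0.22, limma adjusted p = 0.774). The gene GPR137 overlaps 23.7% of the exonic bases of BAD on the opposite strand.

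Counting groups that did not overlap gave 2 members above, BAX and BID, and 1 below, BCL2L11, of 9. Over all genes tested, all 3 mimic samples lay above all 3 NC samples in 16.5% and below them in 14.8%.

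Levels can be compared between genes per kb of annotated exon, on which scale the members spanned more than an order of magnitude. In the NC mimic samples MCL1 had a mean level of 4290 normalised reads per kb and BCL2L1 of 1990. The level of BAD was 636 normalised reads per kb, that of BAK1 567 and that of PMAIP1 523. Below these stood BIK at 322, BCL2L11 at 278, BID at 238 and BAX at 220 normalised reads per kb. The sample ranges per kb of BID (222 to 245) and BAX (201 to 232) overlapped in the NC mimic samples, while those of the other neighbours in this order did not. In the miR-21-3p mimic samples the lower end of the order was different: the level of BID was 304 normalised reads per kb (range 292 to 322), above BAX at 248 (range 232 to 259) and BCL2L11 at 235 (range 230 to 245). BAK1 and PMAIP1 overlapped per kb in the mimic samples, as did BAX and BCL2L11. Exons of all annotated transcripts were pooled for the length, 6.66 kb for BCL2L11, 4.45 kb for BID and 0.95 kb for BIK, and lengths of single transcripts were not compared. The place of BID above BCL2L11 in the mimic samples rests on these lengths. Before division by length, BID had fewer normalised reads than BCL2L11 in every sample.

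**Figure D2:**
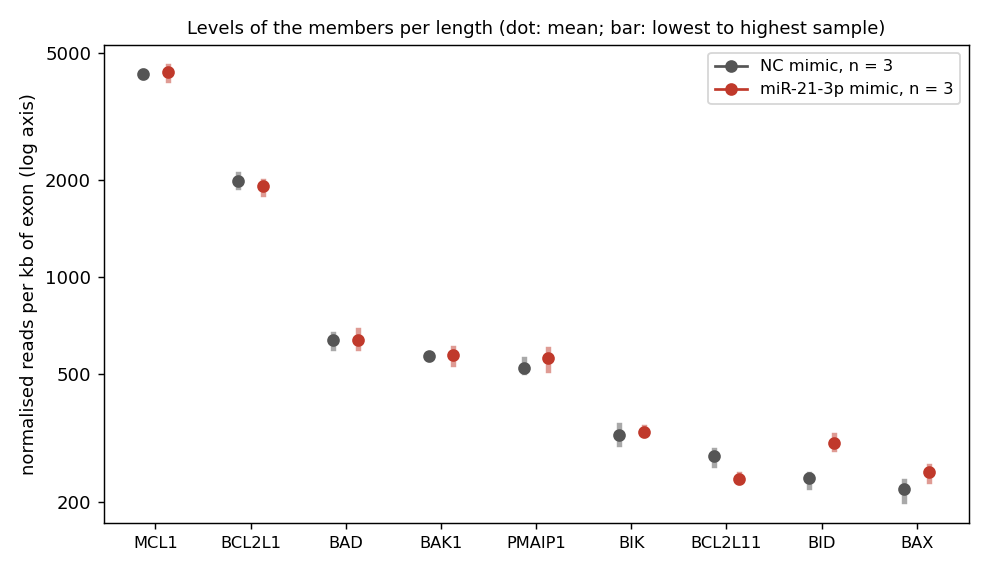
Normalised reads per kb of exon (log axis) for the 9 members, ordered by their NC mimic mean; dots are means of 3 samples and bars run from the lowest to the highest sample, grey for NC mimic and red for miR-21-3p mimic. BCL2L11 stands above BID in NC mimic samples (278 and 238) and below it in miR-21-3p mimic samples (235 and 304). Before division by length, BCL2L11 is above BID in every sample.

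Set against each other by class, the members showed a small difference. The median log2 fold change was -0.02 over the 2 pro-survival members with values and 0.04 over the 7 pro-death members, against 0.00 over all genes tested, and the difference of -0.06 is a description with no test. It was -0.104 without miR-21-3p mimic replicate 2, -0.037 without NC mimic replicate 2 and -0.036 without miR-21-3p mimic replicate 3. Summed normalised reads of MCL1 and BCL2L1 were 25740, 24740 and 25570 in the NC mimic samples and 25730, 26400 and 24020 in the mimic samples. The summed reads of the 7 pro-death members were 7448, 7209 and 7220 against 7468, 7609 and 7356. The ratio of the first sum to the second, not corrected for length, was 3.46, 3.43 and 3.54 in the NC mimic samples and 3.45, 3.47 and 3.27 in the mimic samples. These ratios overlapped between groups, with the lowest in miR-21-3p mimic replicate 3. A balance that weighs each gene alike, the median deviation of the pro-survival members from their own log2 means minus that of the pro-death members, was 0.036, 0.001 and 0.056 in the NC mimic samples and -0.012, -0.021 and -0.052 in the mimic samples. This balance did not overlap between groups, with NC mimic replicate 2 nearest the mimic samples, and is likewise a description with no test. Its pro-survival side is the median of 2 genes, neither of which passed. Among single genes tested, all 3 mimic samples lay below all 3 NC samples in 14.8% and above them in 16.5%. Summed reads of the 5 BH3-only members were 5591, 5379 and 5440 in the NC mimic samples and 5532, 5678 and 5497 in the mimic samples. Reads of BID per read of BCL2L11 were 0.577, 0.63 and 0.512 in the NC mimic samples and 0.863, 0.798 and 0.935 in the mimic samples. The ratio of BID to BCL2L11 was chosen after both genes had passed in opposite directions. Its separation follows from that choice, so it adds no test and does not describe the class.

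**Figure D3:**
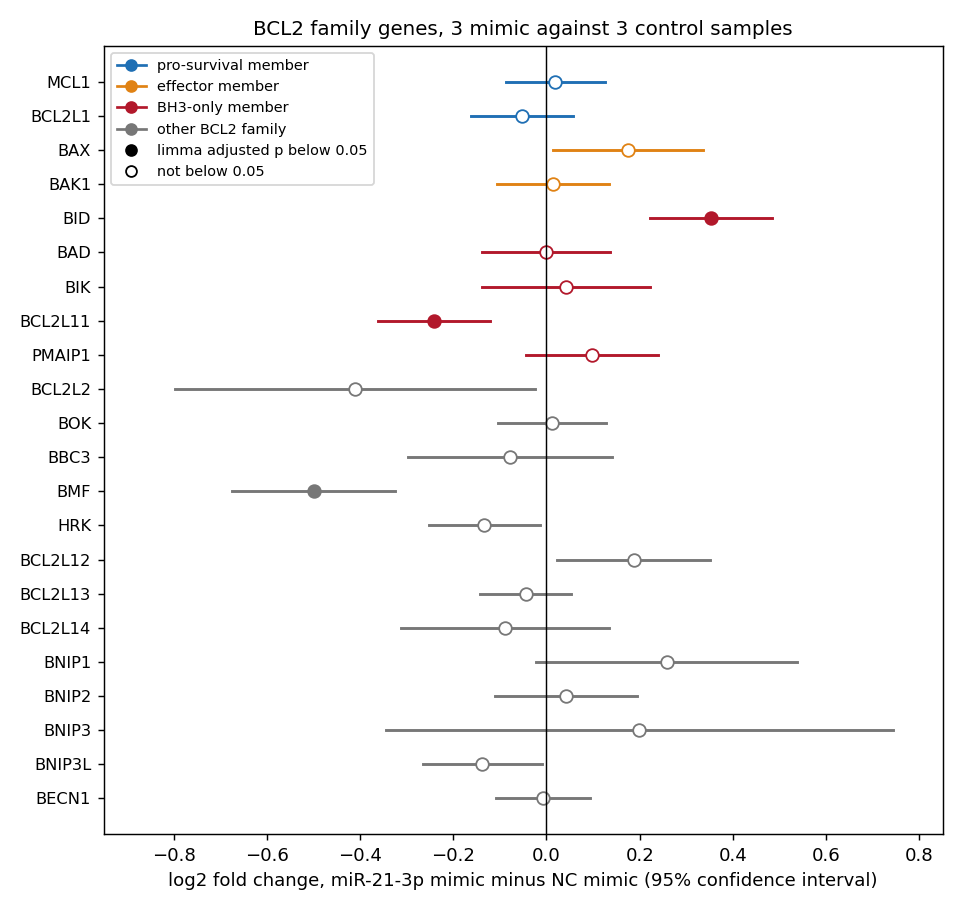
Log2 fold change (miR-21-3p mimic minus NC mimic, horizontal axis) with its 95% confidence interval for the 9 members and 13 other BCL2 family genes; filled dots have a limma adjusted p under 0.05. BID lies at 0.35, BCL2L11 at -0.24 and BMF at -0.50, and the intervals of MCL1 and BCL2L1 include 0.

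Of 16 further BCL2 family genes, 13 had values and 1 passed the test, which is 7.69% of them against 10.8% of all genes tested. That gene was BMF, a BH3-only protein tethered to the cytoskeleton and released on loss of attachment. BMF had 2620, 2260 and 2550 normalised reads in the NC mimic samples and 1750, 1970 and 1550 in the mimic samples. All 3 mimic samples lay below all 3 NC samples, and NC mimic replicate 2 was the lowest of its group. For BMF the log2 fold change was -0.50 (SE 0.08, interval -0.67 to -0.32), a fold of 0.71, with a limma adjusted p of 0.00554. BMF passed in all 6 fits that left out 1 sample, with an adjusted p of 0.000222 without NC mimic replicate 2 and of 0.0414 at most. No motif match lay in its 2 promoter windows, and BMF-AS1 covers 8.5% of its exonic bases on the opposite strand. BCL2L13, a mitochondrial outer membrane protein, had the highest normalised read count of this list and did not pass, at 5420 to 5700 in NC mimic and 5160 to 5520 in mimic samples. The median log2 fold change of the 13 genes was -0.04.

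**Figure D4:**
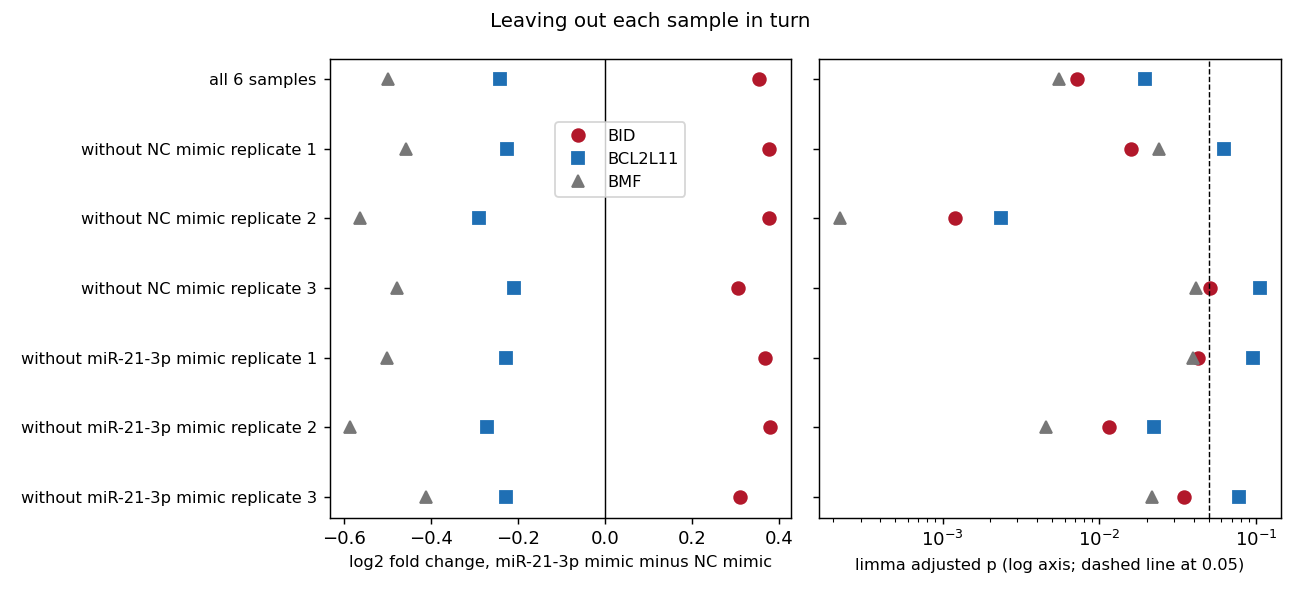
Log2 fold change (left) and limma adjusted p (right, log axis, dashed line at 0.05) of BID, BCL2L11 and BMF with all 6 samples and after leaving out each sample in turn. The log2 fold changes keep their sides of 0, and BMF stays below the dashed line. BID reaches 0.0505 without NC mimic replicate 3. BCL2L11 lies above the line in 4 of the 6 fits, those where 1.21% to 3.68% of all genes tested passed.

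Downstream of the pores, 2 of 10 genes of the apoptosome and caspase list passed, both higher with the mimic, against 10.8% of all genes tested (6.11% higher). Without NC mimic replicate 2 the count was 2 higher and 1 lower, against 20.1% of all genes, the lower gene being CASP9 (limma adjusted p = 0.0409, up to 0.375 without another sample). It was 1 without NC mimic replicate 1 (3.68% of all genes) or miR-21-3p mimic replicate 2 (10.4%), and 0 of 10 without NC mimic replicate 3 (1.21%), miR-21-3p mimic replicate 1 (1.87%) or miR-21-3p mimic replicate 3 (2.47%). CYCS, which encodes cytochrome c, had 3240, 4100 and 3630 in the NC mimic samples and 4610, 4360 and 4770 in the mimic samples. NC mimic replicate 2 was the nearest CYCS value to the mimic group, and the groups did not overlap. CYCS had a log2 fold change of 0.33 (SE 0.07) with a limma adjusted p of 0.0165, which became 0.000276 without NC mimic replicate 2. Its call was lost without NC mimic replicate 3 (adjusted p = 0.0744), miR-21-3p mimic replicate 1 (0.0743) or miR-21-3p mimic replicate 3 (0.0693). CYCS also has many processed pseudogenes, so its count is uncertain to the extent that they share reads. FADD, the adaptor of death receptors, had 1280, 1360 and 1360 against 1550, 1530 and 1490, a log2 fold change of 0.19 with a limma adjusted p of 0.032. FADD kept its call in 1 of the 6 fits that left out 1 sample, the one without NC mimic replicate 2 (adjusted p = 0.0201), and reached 0.134 without miR-21-3p mimic replicate 1. The gene AP000879.1 covers 54.9% of the exonic bases of FADD on the opposite strand. CASP2 had the highest normalised read count of those that did not pass, with 1900 to 2020 in NC mimic and 1980 to 2070 in mimic samples.

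Of 7 genes for released mitochondrial proteins and channels with values, limma called 0 with all 6 samples, against 10.8% of all genes tested. An unadjusted p under 0.05 was found for 4 of them (against 28.5% of all genes tested), and edgeR and DESeq2 each called 0. Their median log2 fold change was 0.15. The highest normalised read count was that of VDAC1, a channel of the outer membrane, with 2540, 2870 and 2810 normalised reads in the NC mimic samples and 3120, 2970 and 3140 in the mimic samples. Those groups did not overlap, yet the log2 fold change of 0.17 missed the threshold (limma adjusted p = 0.0623). Without NC mimic replicate 2 the adjusted p of VDAC1 was 0.0191 (up to 0.197 without another sample), and 4 of the 7 genes passed, all higher: VDAC1, VDAC3, AIFM1 and PPIF, of which the last 3 are named after their values were seen. In that fit 20.1% of all genes tested passed. Without miR-21-3p mimic replicate 2, where 10.4% of all genes passed, limma called 1 of the 7, and each of the other 4 fits without 1 sample called 0.

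Among the inhibitor of apoptosis genes 1 of 5 with values passed, against 10.8% of all genes tested. BIRC5 encodes survivin, which also serves the chromosomal passenger complex in mitosis. BIRC5 had 2080, 2480 and 2300 normalised reads in the NC mimic samples and 2900, 2940 and 3190 in the mimic samples, and the groups did not overlap. Its log2 fold change was 0.40 (SE 0.06), a fold of 1.32, with a limma adjusted p of 0.00554, and BIRC5 passed in all 6 fits that left out 1 sample. BIRC2, with the highest normalised read count of those that did not pass, had 3810 to 3850 in NC mimic and 3350 to 3730 in mimic samples, a log2 fold change of -0.10 with an adjusted p of 0.196.

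Of 10 transcription factors known to act on BH3-only genes, 2 passed, against 10.8% of all genes tested. The count was 2 higher (MYC and E2F1) and 2 lower (STAT3 and TP63) without NC mimic replicate 2, against 20.1% of all genes. It was 2 higher (MYC and E2F1) and 2 lower (STAT3 and FOXO3) without miR-21-3p mimic replicate 2, against 10.4%, and 1 in each of the other 4 fits without 1 sample, where 1.21% to 3.68% of all genes passed. MYC had 3180, 2730 and 2740 normalised reads in the NC mimic samples and 3760, 3860 and 3590 in the mimic samples. All MYC values of the mimic group lay above those of the NC group, at a log2 fold change of 0.38 (SE 0.06, fold 1.30, limma adjusted p = 0.00554), and the call held in all 6 fits that left out 1 sample. STAT3 had 4540, 4230 and 4410 against 3930, 3960 and 3690, and its groups did not overlap either. For STAT3 the log2 fold change was -0.19 with a limma adjusted p of 0.0281, and the call held in 2 of the 6 fits that left out 1 sample, those without NC mimic replicate 2 (0.00876) and without miR-21-3p mimic replicate 2 (0.0354). It was lost without NC mimic replicates 1 (0.0873) or 3 (0.113) and miR-21-3p mimic replicates 1 (0.09) or 3 (0.112). TP63, a transcription factor that marks basal KCs, had the highest normalised read count of the factors that did not pass. TP63 had 7490, 7180 and 7680 against 6860, 7120 and 6460, with a limma adjusted p of 0.102 for all samples and 0.0468 without NC mimic replicate 2 (up to 0.321 without another sample). FOXO3 had 2580, 2580 and 2590 against 2330, 2630 and 2150, groups that overlapped, with a limma adjusted p of 0.205 for all samples and 0.0364 without miR-21-3p mimic replicate 2 (up to 0.581 without another sample). E2F1 had 679, 741 and 601 against 824, 687 and 947, groups that overlapped too. The limma adjusted p of E2F1 was 0.113 for all samples. It was 0.0288 without NC mimic replicate 2 and 0.0276 without miR-21-3p mimic replicate 2 (up to 0.371 without another sample).

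MCL1 protein is short-lived, and of 6 genes that govern its turnover 1 passed, against 10.8% of all genes tested. CUL1, a cullin scaffold of ubiquitin ligases, had 1370, 1400 and 1360 normalised reads in the NC mimic samples and 1570, 1540 and 1600 in the mimic samples. The gene AC005229.4 covers 10.9% of its exonic bases on the opposite strand. The groups of CUL1 were tight and apart, at a log2 fold change of 0.19 with a limma adjusted p of 0.0277. Its call held without NC mimic replicate 2 (0.0189) and without miR-21-3p mimic replicate 2 (0.0412), and was lost without NC mimic replicates 1 (0.0666) or 3 (0.119) and miR-21-3p mimic replicates 1 (0.111) or 3 (0.103). HUWE1, a ubiquitin ligase for MCL1, had the highest normalised read count of those that did not pass, with 15500 to 16100 in NC mimic and 15800 to 16600 in mimic samples. Over the 6 lists together, 7 of 51 genes passed, 5 higher and 2 lower, which is 13.7% against 10.8% of all genes tested. Without NC mimic replicate 2 the lists held 10 genes higher and 4 lower, in a fit with 1632 higher and 1334 lower (20.1% of all genes). They held 6 higher and 3 lower without miR-21-3p mimic replicate 2 (10.4% of all genes), 3 higher and 1 lower without NC mimic replicate 1 (3.68%), and 2 higher and 1 lower without NC mimic replicate 3 (1.21%), miR-21-3p mimic replicate 1 (1.87%) or miR-21-3p mimic replicate 3 (2.47%).

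**Figure D5:**
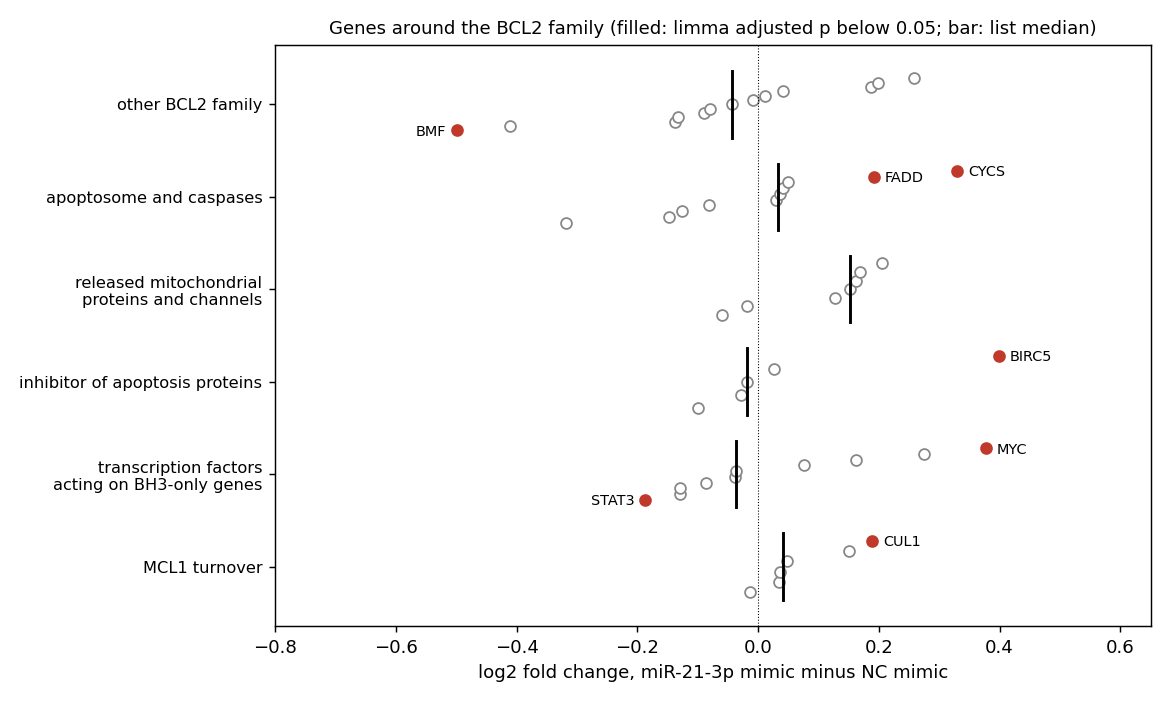
Log2 fold change (miR-21-3p mimic minus NC mimic, horizontal axis) of each gene in the 6 lists around the BCL2 family; filled red dots, named, have a limma adjusted p under 0.05, open dots do not, and black bars are list medians. BMF lies at -0.50 and BIRC5 at 0.40, and no gene of the mitochondrial list is filled although its median is 0.15.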

How the data were processed

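Polyadenylated RNA from 6 HaCaT cultures, 3 per group, was sequenced by the authors. The deposited signal is a read count per gene divided by a size factor per sample and kept to 3 significant digits; the submitters' processing notes name bcl2fastq 2.18.12, cutadapt 1.15, TopHat2 2.1.1, featureCounts (Subread 1.5.2) and DESeq2, without their roles. Genome build, annotation and strand setting are not given in the sources used here. Of values below 100, 100.0% were whole reads (within 0.1) once multiplied back, giving about 24402815 to 27984002 reads per sample.

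Because the values were scaled and not counts, limma 3.58.1 (R 4.3.3, trended prior) was used on log2(value + 1) in place of the planned edgeR test, on rows with at least 10 in at least 3 samples, with Benjamini-Hochberg adjustment over all 14795 genes and a threshold of 0.05. Fold changes are on that log2(value + 1) scale. On the recovered reads, edgeR 4.0.16 called 1644 genes and DESeq2 1.42.0 called 1590. Scripts were tested on simulated data. Gene lengths, positions and overlaps came from GENCODE release 29, and promoter windows from RefSeq. GENCODE release 29 held 90.2% of the table's 22152 identifiers with version numbers ignored, and 7250 of them with the same version. The annotation may differ from that used for counting.

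Alternatives were another normalisation (DESeq2 size factors, upper quartile), DESeq2, no filter, a filter of 50, a replicate block and leaving out each sample. The planned test, edgeR with TMM, was run on the recovered reads. Its place as an alternative, limma as the main test, a limma block and pseudocounts of 0.5 and 10 were chosen after seeing the data. Members and lists were chosen with earlier results of these data known. Named were all members, every list gene that passed, the gene per list with the highest mean that did not, the cell type markers given, some genes overlapping or copying a named gene, and others where the text says so or where a call appeared under an alternative. MARCHF5 was matched by its identifier. Listed genes without a row were not analysed here, and some genes first placed in the lists are not reported here or counted.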

Additional observations from a re-analysis of the deposited data

How the results depend on the processing

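The calls of BID and BCL2L11 held in all 10 alternatives that kept every sample, with adjusted p from 0.000172 to 0.00982 for BID and from 0.00586 to 0.0375 for BCL2L11, and the number of members called stayed at 2. All 10 named genes that passed kept their direction in each of these and in the 6 fits that left out 1 sample. Leaving out 1 sample moved the number of genes called between 179 and 2966 (higher 98 to 1632, lower 81 to 1334), the number of members called between 0 and 2, and the difference of class medians between -0.104 and -0.036. Small log2 fold changes of genes that did not pass changed sign in those fits: MCL1 ran from -0.0097 to 0.059, BAK1 from -0.022 to 0.058, BAD from -0.055 to 0.037, BIK from -0.00038 to 0.097, KRT5 from -0.017 to 0.071, CD14 from -0.0094 to 0.298, VWF from -0.044 to 0.033 and PMEL from -0.003 to 0.18. The cause was not tested.

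The replicate numbers did not pair the samples: deviations of same-numbered samples correlated at -0.077, -0.295 and -0.315 over 12173 genes. No sample correlated best with its own number, and samples with different numbers ran from -0.161 to 0.43 (NC mimic replicate 2 with miR-21-3p mimic replicate 3). With a replicate block limma called 1193 genes (681 higher, 512 lower) and edgeR 1200 (654 higher, 546 lower), both with 2 members called and a difference of class medians of -0.058; FADD, STAT3 and CUL1 had adjusted p of 0.0785, 0.0607 and 0.0763 under the limma block and 0.0804, 0.0596 and 0.0789 under the edgeR block. COL1A1 passed under DESeq2 (0.0278), upper-quartile factors (0.0487) and the edgeR block (0.0474), and SFN under DESeq2 (0.0295). With values kept to 3 significant digits, smaller differences between samples cannot be seen.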

Other observations

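Several family genes outside those that passed had groups that did not overlap, and they are named after their values were seen. HRK, a BH3-only gene best known from neurons, had 1070, 1030 and 1090 normalised reads in the NC mimic samples and 946, 1010 and 953 in the miR-21-3p mimic samples, a log2 fold change of -0.13 that missed the threshold (limma adjusted p = 0.135). BCL2L12 had 387, 386 and 385 against 422, 422 and 477, at a log2 fold change of 0.19 (limma adjusted p = 0.127), and IRF3 covers 33.1% of its exonic bases on the opposite strand. BCL2L2, which encodes the pro-survival protein BCL-w, had low values, 41.7, 43.3 and 43.9 against 28.6, 33.8 and 34.1, and shares 19.4% of its exonic bases with the readthrough gene BCL2L2-PABPN1 on the same strand (limma adjusted p = 0.151). Over the 13 further family genes with values, 2 had all mimic samples above the NC samples (BCL2L12 and BNIP1) and 3 had all below (BCL2L2, BMF and HRK), against 16.5% and 14.8% of all genes tested.

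BBC3, which encodes the BH3-only protein PUMA, had 232, 205 and 205 normalised reads in the NC mimic samples and 200, 220 and 188 in the mimic samples, which overlapped.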
